A study of Sus scrofa with 18 samples.

Results

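Forkhead box (FOX), SRY-related HMG box (SOX), T-box (TBX), paired box (PAX), sine oculis homeobox (such as SIX5) and LIM homeobox (LHX) genes encode transcription factors. In the pig RefSeq annotation of Sscrofa11.1, 95 of the 19484 protein-coding genes on chromosomes 1 to 18 and X belong to these families by their symbols, namely 42 FOX, 19 SOX, 13 TBX, 8 PAX, 6 sine oculis and 7 LHX genes. Membership rests on symbol and position, although the families were picked with earlier results of these data known. Each gene was examined for H3K4me3 and H3K27ac peaks in a window made of the gene and 3 kb on both sides.

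The peaks came from the myometrium of Yorkshire gilts, taken on the mesometrial side of the uterus (the side that carries the supporting ligament). GD15M_CM and GD15M_LM are the circular and longitudinal muscle of naturally mated gilts on day 15 of pregnancy, and CD15M_CM is the circular muscle on day 15 of the estrous cycle. The endometrium had been removed with a blade and the muscle layers were separated from each other. Each mark and IgG were profiled by CUT&Tag, in which protein A-Tn5 cuts the DNA around a bound antibody, in 2 gilts per group, giving 18 libraries. Peaks were called on the pooled reads of both gilts, which left 1 list per mark and group. No difference between these lists could therefore be set against the spread between gilts, and all comparisons here are descriptions. The paper itself compared regions between the groups with DiffBind. Between pregnancy and cycle in circular muscle it reported very few differing H3K27ac regions but many differing H3K4me3 regions. Between the layers it reported many for both marks. Those regions were not used here.

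Each family shares a DNA-binding domain, and many members fix the identity of a tissue while the embryo forms. H3K4me3 is found at promoters in use, and H3K27ac at both promoters and enhancers in use. Genes that define the identity of a cell often carry unusually long stretches of both marks, whereas regulators of other lineages usually lack such long stretches. In the female tract, PAX2 and LHX1 take part in forming the Müllerian duct, from which the uterus arises, and several FOX and SOX factors are known from uterine glands and vessels.

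The lists held 31290 to 35600 H3K4me3 peaks and 56172 to 80992 H3K27ac peaks on these chromosomes, and their read depth cannot be told from them. All 9 smooth muscle markers (MYH11, ACTA2, CNN1, TAGLN, SMTN, MYL9, LMOD1, DES and ACTG2) had peaks of both marks in every list, and all 9 had broad H3K4me3. Summed over them, H3K4me3 covered 83834 bp (GD15M_CM), 153215 bp (GD15M_LM) and 117468 bp (CD15M_CM). All 8 epithelial markers had H3K4me3 peaks in both circular muscle lists, and 7 in GD15M_LM. A peak was called broad when it was among the longest 5% of its own list. For H3K4me3 this meant at least 4217, 4685 and 4559 bp in GD15M_CM, GD15M_LM and CD15M_CM. For H3K27ac it meant 2583, 2603 and 2725 bp in the same order, which is kept for all series of values given without group names.

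Many factor genes had no peak, while a minority carried broad H3K4me3. An H3K4me3 peak reached 52 of the 95 windows in GD15M_CM, against 74.0% of all protein-coding genes. In GD15M_LM it was 55, against 74.9%, and in CD15M_CM 57, against 75.7%. Broad H3K4me3 reached 19 factor genes in GD15M_CM (all genes 11.9%), 15 in GD15M_LM (all genes 11.5%) and 19 in CD15M_CM (all genes 13.2%). The median covered length per factor gene was 729, 1021 and 1439 bp in GD15M_CM, GD15M_LM and CD15M_CM, against 2365.5, 2493 and 2621 bp over all genes.

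For H3K27ac the share of windows with any peak was lower still. A peak reached 45 factor genes in GD15M_CM (all genes 74.1%), 42 in GD15M_LM (73.3%) and 45 in CD15M_CM (76.0%). Broad H3K27ac reached 17 factor genes in GD15M_CM, or 17.9% against 19.1% of all genes. It reached 16 in GD15M_LM, or 16.8% against 13.0%, and 17 in CD15M_CM, or 17.9% against 17.7%. The broad H3K27ac share was thus near that of all genes in both circular muscle lists. A window can also hold part of another gene, as it did for 27 factor genes. Among the 68 windows free of other protein-coding genes, broad H3K4me3 was found in 9, 8 and 9 in the order GD15M_CM, GD15M_LM and CD15M_CM (13.2%, 11.8% and 13.2%), against 6.81%, 6.84% and 7.29% of the 10224 such genes in the genome.

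The families differed in how many members carried peaks. At least 25 of the 42 FOX genes had a peak of each mark in each list, and 8, 7 and 8 had broad H3K4me3 in GD15M_CM, GD15M_LM and CD15M_CM. SOX genes had broad H3K4me3 in 6, 4 and 6 of 19 and TBX genes in 3 of 13 in every list. PAX2 was the PAX gene with a broad peak and SIX5 the one of its family, and no LHX gene had one.

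Neither mark was found at 30 factor genes in any list (18.6% of all genes were in this state). They included FOXE1, FOXE3, FOXI1, FOXI2, FOXI3, FOXN4, FOXR1, FOXR2, LHX1, LHX2, LHX5, LHX8, LHX9, PAX1, PAX3, PAX4, PAX6, PAX9, SIX3, SOX1, SOX2, SOX3, SOX14, TBX4, TBX5, TBX19, TBX20 and TBX22. Many of these genes are known from other organs: PAX6 and SIX3 from the eye and brain, SOX2 from stem cells and neural tissue, TBX5 from heart and forelimb, TBX4 from the hindlimb and lung. LHX1 of the Müllerian duct was among them. SIX6, also known from the eye, had 1 H3K4me3 peak of 285 bp in GD15M_CM and none in the other lists. Of the SOXB genes, which are known from neural tissue, SOX1, SOX2, SOX3 and SOX14 had no peak of either mark, whereas SOX21 had H3K4me3 over 725 bp in GD15M_LM and 836 bp in CD15M_CM.

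A further 14 factor genes had H3K4me3 in at least 1 list and H3K27ac in none, which held for 2.80% of all genes. They were FOXA1, FOXB1, FOXD1, FOXD3, FOXL1, LHX4, LHX6, PAX5, SIX2, SIX6, SOX9, SOX11, SOX21 and TBX15. Their peaks were mostly short. The longest at any of them were 2749 bp at FOXB1 and 2369 bp at SOX11, both in CD15M_CM, and none was broad. The reverse state, H3K27ac without H3K4me3, was found at FOXB2, FOXN1, FOXP4 and PAX7 (4 factor genes, 4.15% of all genes).

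Broad H3K4me3 in at least 1 list marked 27 factor genes (16.6% of all genes), and in all 3 lists 10 of them (8.16% of all genes): FOXO1, FOXO3, FOXP1, SIX5, SOX4, SOX12, SOX15, SOX18, TBX2 and TBX3. Broad H3K27ac in at least 1 list marked 22 (23.8% of all genes) and in all 3 lists 11 (9.78%): FOXJ2, FOXK1, FOXO1, FOXO3, SIX5, SOX4, SOX5, SOX6, SOX13, TBX2 and TBX3. Both marks were broad in all 6 lists at FOXO1, FOXO3, SIX5, SOX4, TBX2 and TBX3, that is at 6 factor genes, against 4.98% of all genes. At 19 factor genes each mark was broad in at least 1 list (12.9% of all genes).

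**Figure D1:**
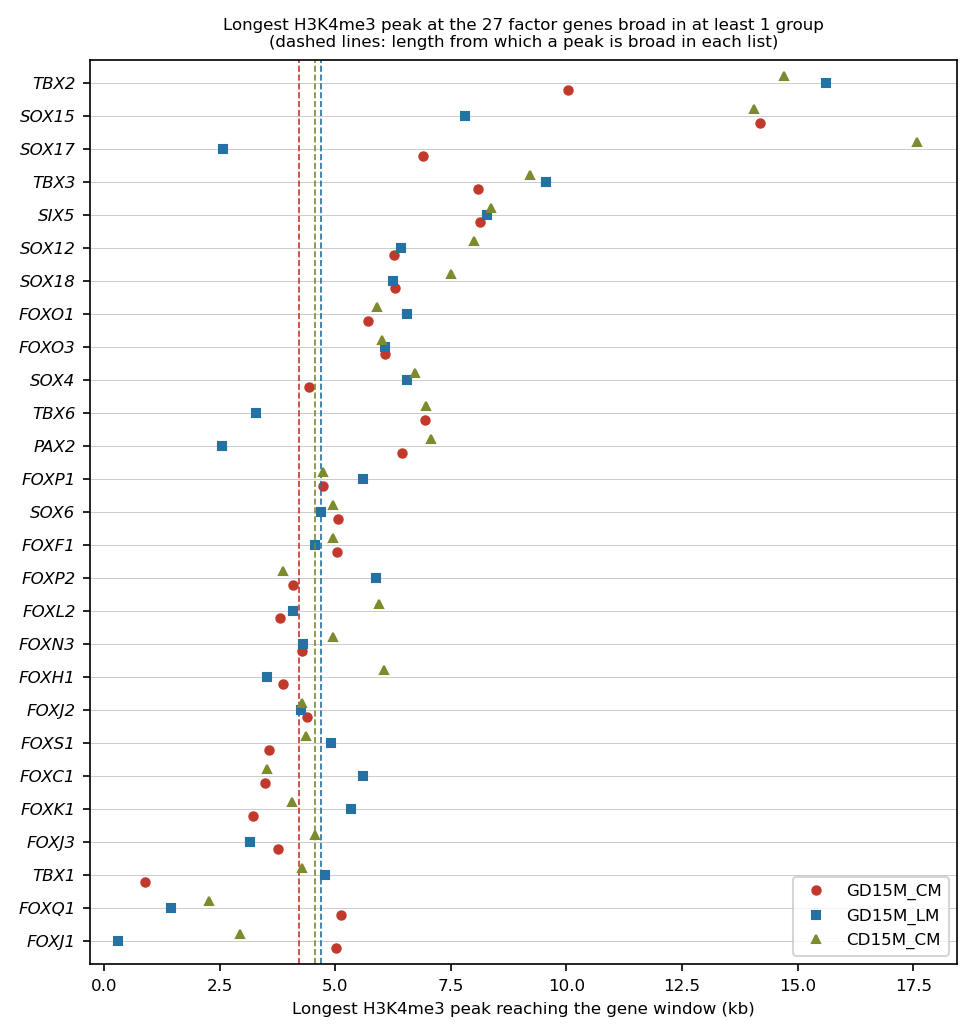
The length of the longest H3K4me3 peak (x axis, kb) at each of the 27 factor genes with a broad peak in at least 1 group, 1 point per pooled list of GD15M_CM, GD15M_LM and CD15M_CM; dashed lines give the length from which a peak is broad in each list. TBX2 reaches 15614 bp in GD15M_LM, while SOX17, PAX2 and TBX6 are long in both circular muscle lists and short in GD15M_LM. The longest GD15M_CM peak at SOX17 lies to the left of the gene.

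TBX2 and TBX3, T-box factors that act mainly as transcriptional repressors in limb, heart and body wall, held long domains of both marks in all 3 groups. TBX2 (chromosome 12, 36878662 to 36887513) had a longest H3K4me3 peak of 10042, 15614 and 14703 bp in GD15M_CM, GD15M_LM and CD15M_CM. Its longest H3K27ac peaks were 3767, 14843 and 14343 bp in the same order. In GD15M_LM both marks covered the whole gene, and in GD15M_CM H3K4me3 covered 90.0% and H3K27ac 81.8% of it. The GD15M_CM domain was split into 6 H3K4me3 and 7 H3K27ac peaks, so its total length was closer to the others than its longest peak was: H3K4me3 covered 12196, 14444 and 13158 bp of the window and H3K27ac 11174, 14451 and 14344 bp. An uncharacterized protein-coding gene, LOC110256170, also reaches this window.

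TBX3 (chromosome 14, 37582704 to 37596767) had no other protein-coding gene in its window. H3K4me3 covered 10842, 16808 and 15015 bp of it in GD15M_CM, GD15M_LM and CD15M_CM, and H3K27ac 12390, 14092 and 14890 bp. The longest H3K4me3 peaks were 8088, 9558 and 9204 bp and the longest H3K27ac peaks 3314, 8480 and 5508 bp. GD15M_CM had the lowest of these values for both marks, and no difference in covered length reached 2-fold. The smooth muscle markers likewise had their lowest summed H3K4me3 in GD15M_CM, and their part in the values at TBX2, TBX3 and TBX1 was not tested. The highest H3K4me3 peak of GD15M_LM at TBX3 was 32.0-fold enriched over IgG and ranked at percentile 96.4 of that list.

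Both genes have a close relative next to them on the chromosome, and these relatives were bare. TBX4 lies 48.3 kb from TBX2 and TBX5 lies 175.4 kb from TBX3, and neither had a peak of either mark. Of the other T-box genes of limb and body wall, TBX15 had a single H3K4me3 peak of 217 bp in CD15M_CM. TBX18, known from the mesenchyme that forms smooth muscle around the ureter, had 1 H3K4me3 peak in each group, of 1816, 2750 and 2170 bp in GD15M_CM, GD15M_LM and CD15M_CM, and H3K27ac of 0, 1024 and 271 bp.

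**Figure D2:**
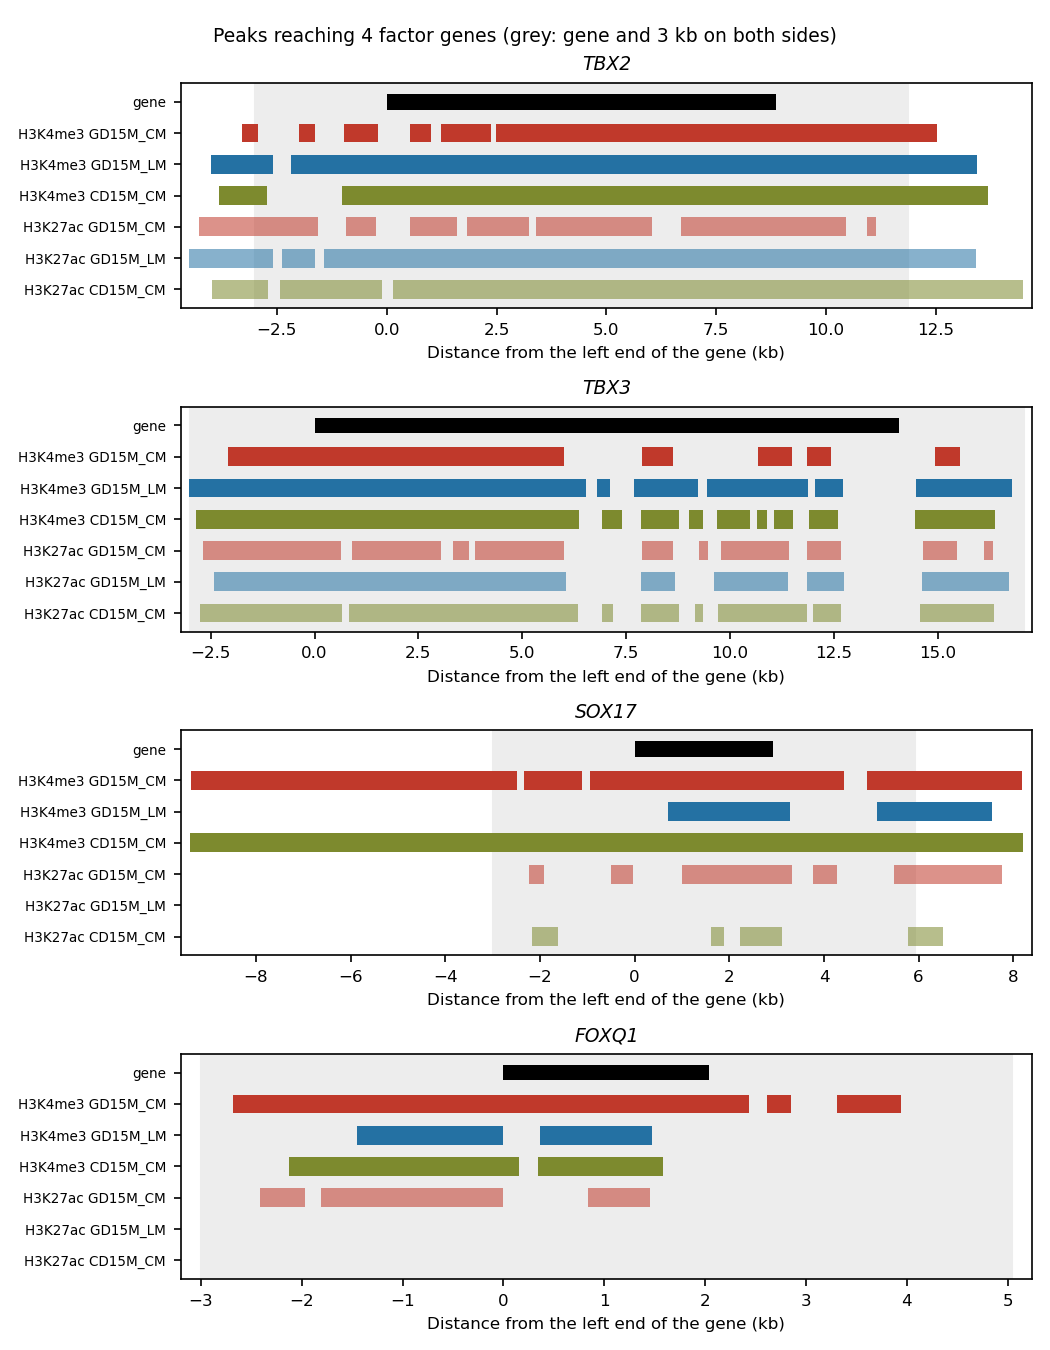
Positions of H3K4me3 and H3K27ac peaks in the 3 pooled lists at TBX2, TBX3, SOX17 and FOXQ1, as distance from the left end of the gene in kb (gene direction is not given); black bars are genes and grey areas the gene with 3 kb on both sides. TBX2 is covered by 1 long peak per mark in GD15M_LM and by several shorter ones in GD15M_CM, and SOX17 and FOXQ1 have no H3K27ac peak in GD15M_LM.

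Among the widely expressed FOX genes, FOXO1 and FOXO3, which respond to insulin and growth factor signaling, had broad peaks in all lists. The longest H3K4me3 peak at FOXO1 (chromosome 11, 15317222 to 15410059) was 5713 bp (GD15M_CM), 6556 bp (GD15M_LM) and 5899 bp (CD15M_CM). All 3 peaks spanned the right-hand end of the gene, and their fold enrichment ranked at percentiles 99.2, 99.9 and 98.8. At FOXO3 (chromosome 1, 74626673 to 74760323) the longest H3K4me3 peaks were 6074, 6070 and 6020 bp, and thus nearly of one length. FOXP1 (chromosome 13), a forkhead repressor active in many tissues, had H3K4me3 peaks of up to 4739, 5604 and 4734 bp. In all, 13 of the 14 widely expressed FOX genes had H3K4me3 in every list, all but FOXP4 (72.2% of all genes). All 14 had H3K27ac in every list (70.2% of all genes). Broad H3K4me3 was found at 5 of the 14 in each list (all genes 11.9%, 11.5% and 13.2%).

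SOX4 and SOX12, SOXC factors known from progenitor cells and many adult tissues, were broad for H3K4me3 in all 3 groups, unlike the third SOXC gene, SOX11. SOX4 (chromosome 7, 16886834 to 16895488) had H3K4me3 peaks of up to 4434 bp in GD15M_CM against 6544 bp in GD15M_LM and 6723 in CD15M_CM, and its highest peaks were 38.3-, 41.4- and 53.2-fold over IgG, all above percentile 99 of their lists. At SOX12 the longest peaks were 6272, 6412 and 8001 bp. SOX11 had peaks of up to 405, 1032 and 2369 bp and no H3K27ac. In every list a broad H3K27ac peak reached the windows of the SOXD genes SOX5, SOX6 and SOX13, known from cartilage and muscle. The longest peaks were between 2840 bp (SOX6, GD15M_LM) and 4851 bp (SOX13, GD15M_CM). At SOX13, however, the longest peak of each list lay to the left of the gene and reached only the edge of its window.

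Other factor genes with broad H3K4me3 share their windows with neighbors, so that a peak may belong to the neighbor. SIX5 (longest H3K4me3 peaks 8124, 8288 and 8377 bp) lies beside DMPK and BHMG1, and SOX15 (14196, 7807 and 14058 bp) beside MPDU1 and FXR2. SOX18, a factor of blood and lymph vessels (6285, 6240 and 7501 bp), lies beside TCEA2, and TBX6 (6941, 3276 and 6971 bp) beside PPP4C and YPEL3. Of the 27 factor genes with broad H3K4me3, 12 had windows without another protein-coding gene.

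Broad H3K4me3 in only some of the groups was found at 17 factor genes (8.39% of all genes). FOXF1, FOXN3, PAX2, SOX6, SOX17 and TBX6 had it in both circular muscle lists and not in GD15M_LM (1.76% of all genes). For FOXF1, a regulator of visceral mesenchyme, the longest peaks were 5049 bp in GD15M_CM, 4567 in GD15M_LM and 4955 in CD15M_CM, and SOX6 in GD15M_LM was at 4684 bp. Both lay close to the bound of GD15M_LM, unlike PAX2. At FOXN3 (4286, 4302 and 4960 bp) the peak of GD15M_LM was no shorter than that of GD15M_CM, and the unequal bounds made the pattern. At SOX17 the longest peaks lay at different sites. The longest GD15M_CM peak, of 6888 bp (76844842 to 76851729), lay to the left of the gene. The longest GD15M_LM peak, of 2578 bp (76854928 to 76857505), lay on it. Shorter H3K4me3 peaks of GD15M_CM covered 100% of the gene, against 75.7% covered in GD15M_LM. FOXC1, FOXK1, FOXP2, FOXS1 and TBX1 were broad in GD15M_LM only (1.33% of all genes). FOXC1, a forkhead factor of mesenchyme and vessels, had longest peaks of 3492, 5606 and 3518 bp in the order GD15M_CM, GD15M_LM and CD15M_CM, and FOXP2 had 4095, 5891 and 3866 bp. FOXK1 had 3221, 5333 and 4055 bp and FOXS1 3574, 4910 and 4370 bp. FOXJ1, FOXJ2 and FOXQ1 were broad in GD15M_CM only (1.48% of all genes), and FOXH1, FOXJ3 and FOXL2 in CD15M_CM only (1.79%). FOXJ2 had 4382, 4268 and 4271 bp, all above the bound of GD15M_CM, so the unequal bounds made this pattern too. FOXL2, known from ovary and eyelid, had H3K4me3 peaks of up to 3805, 4083 and 5936 bp but H3K27ac peaks of up to 2866, 2923 and 1368 bp, so its longest H3K4me3 and its shortest H3K27ac were in the same list.

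**Figure D3:**
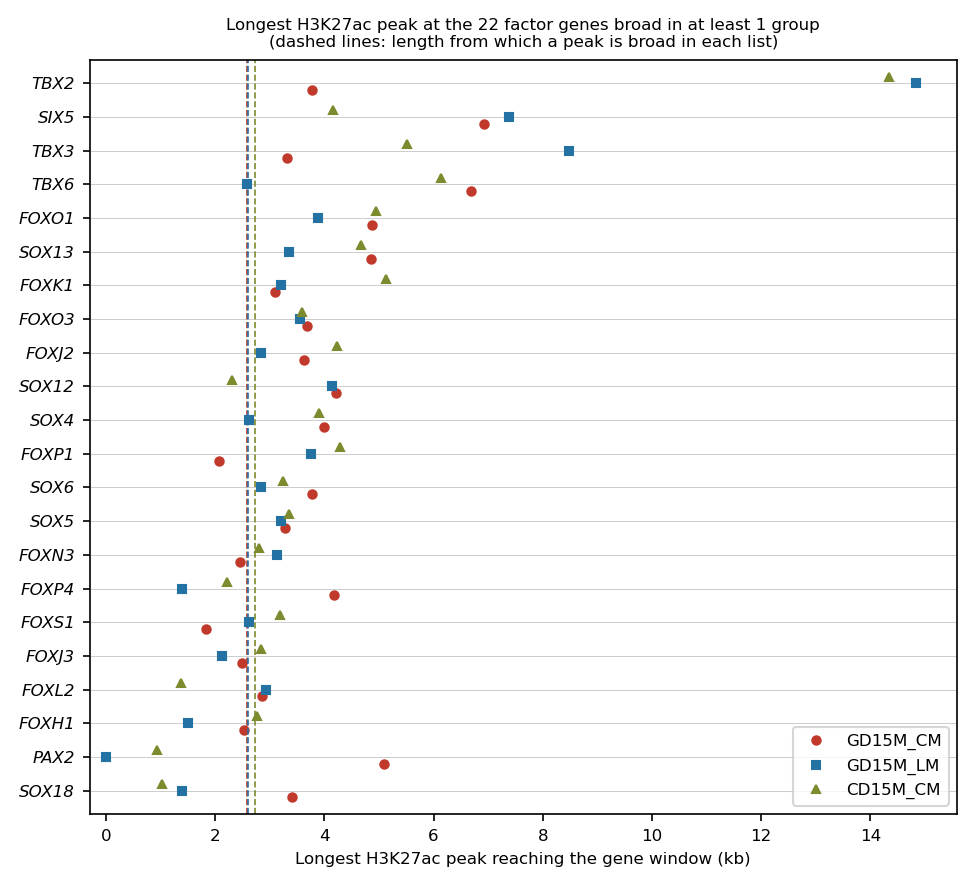
The length of the longest H3K27ac peak (x axis, kb) at each of the 22 factor genes with a broad peak in at least 1 group, 1 point per pooled list; dashed lines give the length from which a peak is broad in each list. TBX2 stands at 14843 (GD15M_LM) and 14343 bp (CD15M_CM), and PAX2 at 5087 bp in GD15M_CM and 0 in GD15M_LM. The longest peak at SOX13 lies to the left of the gene in every list.

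The muscle layers were compared within pregnancy, GD15M_LM against GD15M_CM, by the length of each window that peaks covered. A gene was counted as different when 1 list covered at least 2-fold and at least 1 kb more than the other. H3K4me3 covered more in GD15M_LM at 5 factor genes (2.63% of all genes): FOXC2, FOXD3, SOX10, SOX11 and TBX1. It covered more in GD15M_CM at 6 (1.40% of all genes): FOXB1, FOXJ1, FOXQ1, LHX6, PAX2 and SOX17. Over the 49 factor genes with a peak in both lists, the median log2 ratio of GD15M_LM to GD15M_CM was 0.02, against 0.07 over all genes with peaks in both.

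FOXJ1, PAX2, SOX17 and FOXQ1, all among the 6 genes with more H3K4me3 in GD15M_CM, are known from epithelia among other tissues, and they were put together after their values were seen. FOXA3, also known from epithelia, had H3K4me3 over 4853, 4005 and 4878 bp in GD15M_CM, GD15M_LM and CD15M_CM and did not differ by 2-fold. SYMPK also reaches the window of FOXA3, so a peak there may belong to SYMPK. FOXJ1 (chromosome 12, 5307370 to 5312117), the factor that switches on motile cilia, had H3K4me3 over 5852, 309 and 6568 bp in GD15M_CM, GD15M_LM and CD15M_CM. The ratio between the pregnant layers was 18.9-fold. Its H3K27ac covered 3442, 2384 and 4046 bp, under 2-fold between these layers. RNF157 also reaches its window.

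PAX2 (chromosome 14, 111822334 to 111914950) had no other protein-coding gene in its window. H3K4me3 covered 14460 bp (GD15M_CM), 5238 bp (GD15M_LM) and 15270 bp (CD15M_CM), and H3K27ac 19083, 0 and 3356 bp. Both circular muscle lists thus had long H3K4me3, whereas long H3K27ac stood in GD15M_CM, where 18 peaks made it up. GD15M_CM exceeded GD15M_LM 2.76-fold for H3K4me3 and CD15M_CM 5.69-fold for H3K27ac, and no H3K27ac peak was listed in GD15M_LM.

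SOX17 (chromosome 4, 76854218 to 76857143), known from endoderm, vessels and uterine glands, had H3K4me3 over 8164, 3382 and 8926 bp in GD15M_CM, GD15M_LM and CD15M_CM, and H3K27ac over 4064, 0 and 1866 bp. In CD15M_CM a single H3K4me3 peak of 17583 bp ran across the gene and beyond its window, which LOC100627466 also reaches. FOXQ1 (chromosome 7, 664360 to 666401), a forkhead factor known from epithelia, had H3K4me3 over 6002, 2558 and 3516 bp. Its H3K27ac covered 2879 bp in GD15M_CM and was not listed in the other groups. Of these 4 genes, FOXQ1 alone had more H3K4me3 covered in GD15M_CM than in CD15M_CM. FOXA1, another factor of epithelia, had H3K4me3 over 385 bp in GD15M_CM, none in GD15M_LM and 1802 bp in CD15M_CM.

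Epithelial markers were set beside these genes, whose H3K4me3 direction between the pregnant layers was fixed by how they were chosen. The covered length summed over EPCAM, CDH1, KRT8, KRT18, KRT19, GRHL2, ESRP1 and ELF3 was 30550 bp in GD15M_CM against 13014 bp in GD15M_LM and 28626 bp in CD15M_CM for H3K4me3, and 32987, 2606 and 15620 bp for H3K27ac. By the rule of 2-fold and 1 kb, H3K4me3 covered more in GD15M_CM than in GD15M_LM at 6 of the 8 (1.40% of all genes). H3K27ac did so at all 8 (10.6% of all genes), in a comparison where H3K27ac lengths were generally longer in GD15M_CM. In GD15M_LM ELF3 had no H3K4me3 peak and KRT18, KRT19 and GRHL2 no H3K27ac peak. By the same rule H3K27ac covered more in GD15M_CM than in CD15M_CM at 5 of the 8 (2.72% of all genes). The part of epithelial cells in the values at FOXJ1, PAX2, SOX17 and FOXQ1 was not tested. In such bulk samples, fewer cells of a type and less of a mark per cell cannot be told apart.

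**Figure D4:**
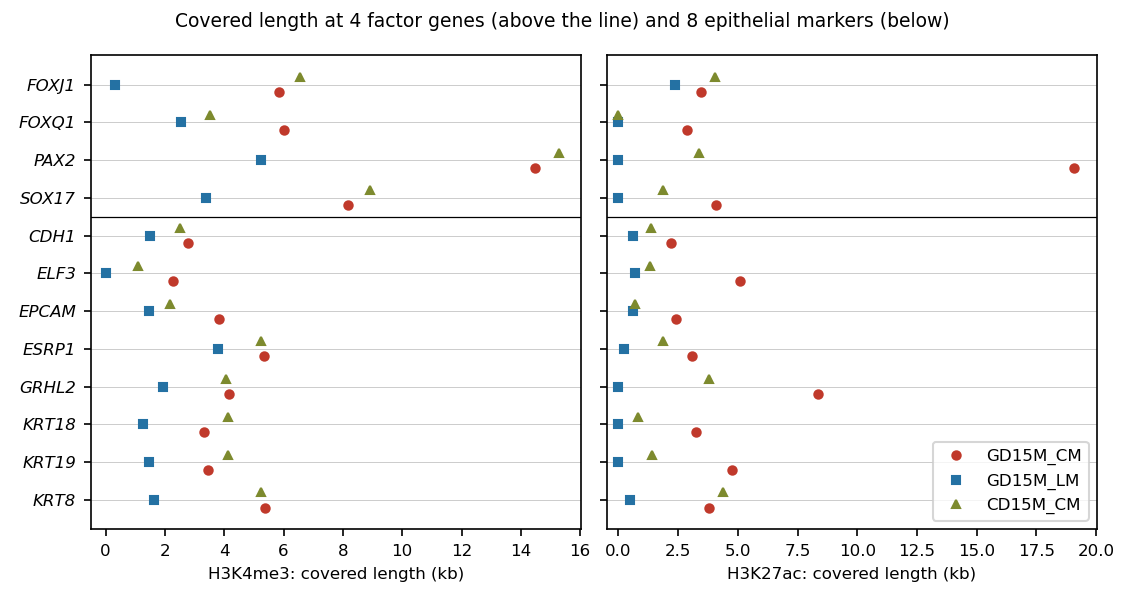
Length covered by H3K4me3 (left) and H3K27ac (right) peaks in kb at FOXJ1, FOXQ1, PAX2 and SOX17 (above the line) and at 8 epithelial marker genes (below it), 1 point per pooled list. GD15M_LM has the shortest H3K4me3 at all 8 markers and at all 4 factor genes, which were taken from those with more H3K4me3 in GD15M_CM. Its H3K27ac is at 0 at FOXQ1, PAX2, SOX17, GRHL2, KRT18 and KRT19.

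Of the genes with more H3K4me3 in GD15M_LM, TBX1 (chromosome 14, 51289376 to 51297110), a factor of the pharyngeal arches, had the longest domain. H3K4me3 covered 2764 bp in GD15M_CM, 8418 in GD15M_LM and 7114 in CD15M_CM, so that GD15M_CM was the low list and GD15M_LM exceeded it 3.05-fold. Its H3K27ac was a single peak of 486 bp in GD15M_CM. SOX11 had H3K4me3 over 729, 2082 and 3760 bp, 2.86-fold more in GD15M_LM than in GD15M_CM. FOXC2, a factor of lymph vessels, had 2430, 5906 and 3905 bp, a ratio of 2.43-fold in the same direction, although its fold enrichment percentile was lower there (GD15M_LM minus GD15M_CM, −2.32 points). MTHFSD also reaches this window. FOXD3, of the neural crest, had 1021 bp in GD15M_LM only.

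SOX10 and SOX8, which direct the glia of nerves, had their shortest marks in GD15M_CM, where SOX10 had no peak. H3K4me3 at SOX10 (chromosome 5, 9890439 to 9901746) covered 0, 1248 and 991 bp in GD15M_CM, GD15M_LM and CD15M_CM, and H3K27ac 0, 1098 and 1996 bp. At SOX8, H3K4me3 covered 2878, 3443 and 4911 bp and H3K27ac 808, 2835 and 2340 bp. All peaks at SOX10 were short, at most 1054 bp. Of the glial markers, ERBB3, which other cells also use, had the most H3K4me3 and H3K27ac covered in GD15M_CM. The part of glial cells was not tested.

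For H3K27ac, 3 factor genes had more in GD15M_LM (2.46% of all genes), namely SOX8, SOX10 and TBX18, and 12 had more in GD15M_CM (10.6% of all genes): FOXF1, FOXM1, FOXN1, FOXO1, FOXO3, FOXP1, FOXP4, FOXQ1, PAX2, SOX5, SOX13 and SOX17. The longer lengths in GD15M_CM were general: over all genes with peaks in both lists the median log2 ratio of GD15M_LM to GD15M_CM was −0.33, and over the 39 such factor genes −0.21. After lengths were divided by the median ratio, 8 factor genes had more in GD15M_CM and 4 in GD15M_LM. The share of all differing genes with more in GD15M_LM then rose from 18.8% to 41.3%, and FOXP1, FOXP4, FOXM1 and SOX5 no longer differed by 2-fold.

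Of the 14 widely expressed FOX genes, 5 had more H3K27ac in GD15M_CM (10.6% of all genes), and much of the difference at the long ones lay inside the genes. At FOXO1 H3K27ac covered 16532 bp (GD15M_CM), 6524 bp (GD15M_LM) and 15621 bp (CD15M_CM), as 23, 7 and 23 peaks. At FOXO3 it covered 24256, 9479 and 20399 bp, and at FOXP1 37420, 18047 and 38702 bp. GD15M_LM was thus the low list at all 3 genes. Within 3 kb of either gene end, however, GD15M_LM minus GD15M_CM was −350 bp at FOXO1, −10 bp at FOXO3 and 300 bp at FOXP1, and among strong peaks alone (fold enrichment from 5 and −log10 p from 10 upward) it was −372, −1055 and −1756 bp. The longest H3K27ac peaks at FOXO1 were 4876, 3886 and 4947 bp and at FOXO3 3680, 3551 and 3599 bp, broad in each list.

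FOXP4 had H3K27ac over 8336, 3607 and 9792 bp without H3K4me3. FOXM1, a driver of cell division, had 2637, 1078 and 2614 bp, and FOXN1, known from thymus and skin, 2449, 312 and 2930 bp. SOX13 had 11130, 4002 and 8562 bp and SOX5 9016, 4245 and 8463 bp. At all of these genes both circular muscle lists were above GD15M_LM. FOXF1 had 2916, 1135 and 1237 bp, so that GD15M_CM alone was high by length, but its highest peak ranked at percentile 37.2 in GD15M_CM and 60.6 in GD15M_LM. With the strong peaks alone, 3 of the 15 differences remained, those at PAX2, SOX17 and TBX18, and SOX13 turned to 1904 bp more in GD15M_LM.

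Pregnancy was compared with the estrous cycle in circular muscle, GD15M_CM against CD15M_CM. The GD15M_CM lists are the same as in the comparison of layers, so both comparisons share these values. H3K4me3 covered more in GD15M_CM at 0 factor genes, against 0.477% of all genes, and more in CD15M_CM at 4, against 2.19%: FOXA1, SIX2, SOX11 and TBX1. The median log2 ratio of GD15M_CM to CD15M_CM was −0.11 over the 50 factor genes with peaks in both and −0.15 over all such genes. Dividing by the median ratio left the 4 factor genes as they were and raised the share of all differing genes with more in GD15M_CM from 17.9% to 28.9%. SOX11 exceeded GD15M_CM 5.16-fold in CD15M_CM, FOXA1 4.68-fold and TBX1 2.57-fold. SIX2, a factor of kidney progenitors, had 1037 bp in CD15M_CM, 945 bp in GD15M_LM and no peak in GD15M_CM.

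H3K27ac covered more in GD15M_CM at 6 factor genes (2.72% of all genes), FOXF1, FOXP3, FOXQ1, PAX2, SOX17 and SOX18, and more in CD15M_CM at 3 (5.35% of all genes), FOXP2, SOX8 and SOX10. The median log2 ratio of GD15M_CM to CD15M_CM was −0.11 over 40 factor genes and −0.04 over all genes. At SOX17 the ratio was 2.18-fold, at FOXF1 2.36-fold and at SOX18 2.23-fold, with SOX18 at 2418, 1505 and 1083 bp in GD15M_CM, GD15M_LM and CD15M_CM. The direction at SOX18 turned by fold enrichment, with its highest peak at percentile 11.6 in GD15M_CM and 24.9 in CD15M_CM, and no H3K27ac peak lay on the gene itself. FOXP2 had 1357, 1469 and 3314 bp and SOX8 was 2.90-fold longer in CD15M_CM. Among strong peaks only PAX2 and SOX17 kept their difference. Markers of endothelium, in which SOX17 and SOX18 are also known, had a summed H3K27ac length of 25493, 9296 and 19664 bp in the same order. By the rule it was longer in GD15M_CM than in CD15M_CM at 2 of the 7 markers (2.72% of all genes). Against GD15M_LM it was longer at 4 of these markers (10.6% of all genes). Their summed H3K4me3 was 23038, 26993 and 23083 bp, highest in GD15M_LM, where H3K4me3 at SOX17 was shortest. Their part was not tested.

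FOXP3 and TBX21, factors of regulatory and of type 1 T cells, were also described beside T cell markers. H3K27ac at FOXP3 covered 1417 bp in GD15M_CM against 2087 bp in GD15M_LM and 259 bp in CD15M_CM, a ratio of 5.47-fold between GD15M_CM and CD15M_CM, and its H3K4me3 3246, 2972 and 3649 bp. CCDC22 and PPP1R3F also reach its window. H3K4me3 at TBX21 covered 4907, 5506 and 3214 bp. Summed H3K4me3 over CD3E, CD3D, CD2, LCK and CD8A was 25719, 25063 and 10959 bp. By this rule it was more in GD15M_CM than in CD15M_CM at 4 of the 5 (0.477% of all genes). Summed H3K27ac was 4513, 2150 and 1581 bp, with CD3E and CD3D at 0 in every list. The part of T cells was not tested.

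Proteins linked to these factors were examined as a list of their own. They were the EYA and DACH partners of sine oculis homeobox factors and the LDB and SSBP proteins of LIM homeodomain complexes. The list also held the LIM-only (LMO) proteins and TLE corepressors, which forkhead and paired box factors can recruit. Of 20 such genes 18 could be placed, and 6, 8 and 8 of them had broad H3K4me3 in GD15M_CM, GD15M_LM and CD15M_CM (all genes 11.9%, 11.5% and 13.2%). H3K4me3 covered more in GD15M_LM than in GD15M_CM at 5, namely EYA1, EYA2, EYA4, LDB2 and LMO1 (2.63% of all genes), and more in GD15M_CM at 0 (1.40%). EYA1 had 814, 4291 and 1615 bp in the order GD15M_CM, GD15M_LM and CD15M_CM, EYA2 1686, 4492 and 1592 bp, and EYA4 3059 bp in GD15M_LM and no peak in the other lists. Among their partners, H3K4me3 covered 3276, 3682 and 3555 bp at SIX4 and 7080, 7366 and 8621 bp at SIX5, while SIX2 had no peak in GD15M_CM and 945 bp in GD15M_LM. DACH1, LDB1, LMO2, LMO4, SSBP3 and SSBP4 were broad for H3K4me3 in all lists, although no LHX gene was. H3K27ac covered more in GD15M_CM than in GD15M_LM at EYA3 and LMO2 (10.6% of all genes), and more in CD15M_CM than in GD15M_CM at EYA2, LDB2 and LMO3 (5.35% of all genes).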

How the data were processed

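The series holds 18 CUT&Tag libraries of H3K4me3, H3K27ac and IgG in 9 groups of 2 gilts. The authors mapped reads to Sus scrofa 11.1, discarded duplicated and poorly mapped reads, pooled both gilts and called peaks over IgG, and the submitters' processing notes name BWA 0.7.17-r1188, SAMtools 1.9, Picard 2.8.3 and MACS2 2.2.6. The 6 deposited lists give, as the authors' MACS2 run wrote them, each peak's position, length in bp, fold enrichment (a ratio of mark over IgG, with scaling not given in the sources used here), −log10 p and −log10 q. The names of both −log10 columns were unreadable in the deposited lists: −log10 p was identified by a supplementary peak table of the same values and used only to filter or rank peaks, and −log10 q was inferred and not used. The lists hold no read counts, so no counting error could be given.

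Genes were RefSeq protein-coding genes of Sscrofa11.1 without strand or sequence, so promoters, motifs and sequences were not analysed here. PAX8, LHX3, TLE1, TLE5, MSLN and S100B had no place on these chromosomes and were not analysed here. A few further genes of the lists are not reported here. A peak counted for a gene from 1 bp of overlap with the gene and 3 kb on both sides, and covered length is the part of that window under peaks. Percentiles are ranks by fold enrichment within the own list, since fold enrichments of different lists are not on a common scale. NumPy 2.4.6, pandas 2.3.3 and Matplotlib 3.10.9 were used under Python 3.11.15, and the overlap code was tested on simulated data. No test across samples was possible from the pooled lists.

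The factor genes, role lists and markers were chosen with earlier results of these data known. Values were given for factor genes broad in all 3 lists of a mark (the 8 longest per mark), broad in 1 group, or among the 5 largest ratios per comparison and direction; FOXL2, TBX18, SOX8, FOXP3 and TBX21 and others are given with their role lists. Alternatives were windows around either gene end, strong peaks only (fold enrichment from 5 and −log10 p from 10 upward), joining of peaks under 1 kb apart, at least 50% of the peak inside the window, a fixed bound of 4 kb, equal numbers of top peaks, 1.5- and 3-fold, division by the median ratio, and percentiles differing by 20 points. Windows without another protein-coding gene were added after seeing the data.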

Additional observations from a re-analysis of the deposited data

How the results depend on the processing

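Of the counts recomputed under another setting, 104 stayed within 1.5 times and 38 moved further, and the cause was not tested unless the setting itself removes genes. With strong peaks only, broad H3K4me3 was found at 15 factor genes and broad H3K27ac at 8, and any H3K27ac at 28. In the comparison of layers, strong peaks left H3K4me3 longer in GD15M_LM at 1 factor gene (790 of all 19484 genes). They gave H3K27ac longer in GD15M_LM at 9 (2770 of all genes) and in GD15M_CM at 5 (2159 of all genes). Of all differing genes, 56.2% were then longer in GD15M_LM, against 18.8%. In the comparison with the cycle they gave 6 with longer H3K27ac in CD15M_CM (2334 of all genes). Joining peaks under 1 kb apart left broad H3K4me3 at 16, and a fixed bound of 4 kb left broad H3K27ac at 12. Windows without another gene, which removes genes, left broad H3K4me3 at 12, any H3K4me3 at 39, broad H3K27ac at 12 and any H3K27ac at 30. H3K4me3 then differed between layers at 7, with 3 longer in GD15M_CM (148 of all 10224 such genes) and 4 in GD15M_LM (297). H3K27ac differed between pregnancy and cycle at 5, with 2 longer in GD15M_CM (286) and 3 in CD15M_CM (649).

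A bound of 1.5-fold gave 8 factor genes with longer H3K4me3 in GD15M_LM (1255 of all 19484 genes). It gave 9 differing for H3K4me3 from the cycle, 2 longer in GD15M_CM (196 of all genes) and 7 in CD15M_CM (1283). H3K27ac was then longer in CD15M_CM at 5 (1876 of all genes). At 3-fold, H3K4me3 differed between layers at 4, with 3 longer in GD15M_LM (228 of all genes) and 1 in GD15M_CM (139). H3K27ac differed between layers at 7, with 4 longer in GD15M_CM (942 of all genes). From the cycle it differed at 4, with 3 longer in GD15M_CM (243) and 1 in CD15M_CM (551). Around either gene end, 1 had longer H3K27ac in CD15M_CM (590 of all genes). By percentile, H3K4me3 ranked higher in GD15M_LM at 8 (1106 of all genes). It differed from the cycle at 12, with 1 higher in GD15M_CM (422) and 11 in CD15M_CM (1193). H3K27ac ranked higher in GD15M_LM at 9 (1982 of all genes) and differed from the cycle at 16, 9 of them higher in CD15M_CM (2381). Calls turned at single genes: between layers the percentile difference (GD15M_LM minus GD15M_CM) was −2.32 for H3K4me3 at FOXC2, and for H3K27ac 0.433 at FOXP1, 15.8 at FOXM1, 23.4 at FOXF1 and 5.01 at SOX13; FOXP1 covered 300 bp more in GD15M_LM around its ends and SOX13 1904 bp more among strong peaks. At SOX18 the H3K27ac percentile difference (GD15M_CM minus CD15M_CM) was −13.3. The differences at PAX2 (H3K27ac, both comparisons), SOX17 and TBX18 (H3K27ac between layers), FOXJ1 (H3K4me3 between layers) and FOXA1 and SOX11 (H3K4me3 against the cycle) held under every alternative that was run on them.

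No paired analysis was possible because both gilts of a group were pooled into 1 list, and for the same reason leaving out a gilt was not run. A window around the transcription start was not run, since the gene models had no strand. The lists give no read depth, so for a gene without a peak it is known only that none was listed.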
